A study of Homo sapiens and Mus musculus with 6 samples.

Results

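The Hoxc cluster is the set of homeobox genes that lies on mouse chromosome 15 and human chromosome 12, and its promoters were followed here through the contacts that promoter capture Hi-C listed for them. The set has 9 symbols: Hoxc4, Hoxc5, Hoxc6, Hoxc8, Hoxc9, Hoxc10, Hoxc11, Hoxc12 and Hoxc13. A call was kept when one of these symbols stood in the name of the fragment at either end. In mouse embryonic stem cells (mESCs), 512 of 101841 listed calls (0.503%) met this rule, and members stood on 7 of the 16265 baits with a call. In the human line GM12878, 185 of 92929 calls (0.199%) did, and members stood on 8 of 15389 baits. Part of these calls came from other baits, with the member at the other end.

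Hox genes encode transcription factors that give body segments their identity along the head-to-tail axis, and their order on the chromosome follows the order in which they are used in the embryo. In pluripotent cells they are classic targets of Polycomb repressors, which mark the whole cluster and keep it silent until differentiation. Neither chromatin marks nor RNA were measured in these files.

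Promoter capture Hi-C cuts crosslinked chromatin with HindIII, ligates fragments that lie together in the nucleus and then pulls down the ligations that involve a promoter fragment, the bait. The study tested the scoring of such data by CHiCAGO. It compares the reads of each fragment pair with a background that depends on distance, on bias of the bait and of the other end, and on technical noise. Every call has a CHiCAGO score of at least 5. The mESC libraries (2 biological replicates) came from J1 cells of strain 129S4/SvJae, grown with 15% serum on irradiated embryonic fibroblasts; repeated plating was meant to remove these feeder cells, and how many stayed cannot be read from these files. The GM12878 libraries (3 biological replicates) came from a lymphoblastoid line labelled B-Lymphocyte, grown in suspension with 15% serum. All cells were fixed in 2% formaldehyde for 10 minutes, with no other treatment, and 1 further mESC library was Hi-C without capture. The authors pooled the replicates of a cell type into 1 set of calls, so no spread between replicates exists, no test was run, and the intervals below (Wilson, 95%) cover counting error only. Calls to neighbouring fragments are not independent of each other.

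In mESCs the member fragments spanned 87.2 kb, from 102764306 to 102851471 on chromosome 15 (mm9), and in GM12878 109 kb, from 54325261 to 54433988 on chromosome 12 (hg19). The genes run from Hoxc13 at the lower coordinate to Hoxc4 at the higher one in both species. In mm9 only 644 kb separate the Hoxc4 end from the end of the chromosome. All 9 symbols were named in the human list and 7 in the mouse list, because the fragments with the annotated starts of Hoxc9 and Hoxc13 carry the names of other transcripts there, Mir196a-2 (102803233 to 102811254) and Gm17649 (102749793 to 102753286). These fragments are described as partners below and were not counted as members.

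Promoters at both ends of the strongest far contacts are shown first, since these contacts join cluster genes to a pair of Wnt genes on the same chromosome. Each window holds the 250 bases before the first annotated start (GENCODE vM1) in mm9, read 5′ to 3′ on the strand of the gene, and capitals mark CG pairs, the sites of DNA methylation and a typical feature of developmental promoters. The windows are chr15:102843996-102844245 (plus strand) for Hoxc5, chr15:98608582-98608831 (minus) for Wnt10b and chr15:98620038-98620287 (plus) for Wnt1. None overlaps an annotated exon.
Hoxc5: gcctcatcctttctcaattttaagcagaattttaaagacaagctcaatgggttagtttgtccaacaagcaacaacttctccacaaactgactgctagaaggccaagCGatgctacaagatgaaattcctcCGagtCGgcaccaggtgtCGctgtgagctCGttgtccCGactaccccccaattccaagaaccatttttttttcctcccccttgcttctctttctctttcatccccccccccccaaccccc
Wnt10b: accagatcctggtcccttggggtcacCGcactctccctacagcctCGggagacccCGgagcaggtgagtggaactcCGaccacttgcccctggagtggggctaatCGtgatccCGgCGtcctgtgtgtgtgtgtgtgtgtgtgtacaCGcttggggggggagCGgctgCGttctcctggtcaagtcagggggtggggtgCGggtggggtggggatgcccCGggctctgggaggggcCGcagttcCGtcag
Wnt1: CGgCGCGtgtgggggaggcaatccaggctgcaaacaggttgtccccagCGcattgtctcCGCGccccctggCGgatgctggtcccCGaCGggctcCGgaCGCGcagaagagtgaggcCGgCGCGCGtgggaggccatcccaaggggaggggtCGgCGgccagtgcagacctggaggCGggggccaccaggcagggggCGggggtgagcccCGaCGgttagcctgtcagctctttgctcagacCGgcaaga
The Wnt1 window holds 23 CG pairs, a number that 15.2% of the 22233 windows of mouse protein-coding genes reach. The Wnt10b window holds 14, which 35.6% reach. The Hoxc5 window holds 6, below the median of 8 over all windows. Among the Hoxc promoters counted, the number ran from 4 for Hoxc4 to 18 for Hoxc10, so they are not of one kind in this respect. The remaining windows held 16 (Hoxc9), 15 (Hoxc13), 14 (Hoxc6 and Hoxc12) and 13 (Hoxc11).

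Within the cluster, mESC promoters were in contact throughout. Of the 512 mESC calls, 138 (27.0%, 23.3 to 31.0) had both ends inside the span, with a median of 74.5 reads and a median score of 20.1. All 21 pairs of the 7 baits were called, 20 of them from both ends. Over the whole list, 34.6% of pairs of baits with a call that lie up to 100 kb apart and are not neighbouring fragments were called. Every member pair lies within that distance, the farthest at 83.5 kb.

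The strongest member pair by score was Hoxc11 with Hoxc5, at 61.5 kb, with 175 reads and scores of 64.3 and 57.1 from the respective sides. By reads it was Hoxc8 with Hoxc5, at 23.7 kb, with 227 reads. The Hoxc12 bait, at the far end, had 148 reads with Hoxc5 across 78.8 kb, more than its 61 reads with Hoxc10 at 27.2 kb. These reads did not simply fall with distance, but they are not corrected for how well each bait was captured. Hoxc10 and Hoxc4 had the lowest counts with the other members: their own pair had 40 reads at 56.2 kb, the fewest of the 21. Hoxc5 with Hoxc4, only 4.69 kb apart, had 216 reads and was called from the Hoxc4 side alone, with a score of 11.8. The 41 calls between member baits had a median of 121 reads and a median score of 26.9, against 23 reads and 7.66 over all calls between baits up to 100 kb apart, whose 95th percentile was 86 reads.

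The contacts were not limited to promoter fragments. The span holds 23 HindIII fragments in mm9, and 125 of the 154 pairs of a member bait with another of them (81.2%) were called. On chromosomes 11 and 15, 5.66% of the pairs of a bait with a HindIII fragment up to 90 kb away were called. The highest score of any Hoxc call, 79.9, joined the Hoxc5 bait to an unnamed fragment in the Hoxc11 gene (102785403 to 102788941), with 143 reads at 58.2 kb.

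The fragments of Hoxc9 and Hoxc13 behaved as the named ones did. The Mir196a-2 fragment, which holds both annotated starts of Hoxc9, was called from all 7 member baits, and as a bait it had 70 calls, 19 of them into the span and 4 over 1 Mb. Its calls to members had 75 to 200 reads. The Gm17649 fragment, which holds the Hoxc13 start just outside the span, was also called from all 7 member baits, with 65 to 201 reads, and as a bait had 87 calls, 22 of them into the span and 4 over 1 Mb. Counting both as members raised the calls from 512 to 676.

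In GM12878 the same cluster was listed with few internal contacts. There 8 of 185 calls (4.32%, 2.21 to 8.30) lay inside the span, with 30 to 43 reads and scores up to 8.27. Over the whole GM12878 list, 32.0% of bait pairs up to 100 kb apart that are not neighbouring fragments were called. Of the 28 pairs of the 8 HOXC baits, 27 of them not neighbouring, 4 (14.3%, 5.70 to 31.5) were called, each from one end only. They were HOXC13 with HOXC12 (38 reads, score 5.40), HOXC13 with the HOXC11 fragment that also carries HOTAIR, a long noncoding RNA of the cluster (31 reads, 6.64), and the HOXC6/HOXC9 fragment with each of the fragments that hold HOXC4 (43 reads, 5.46, and 36 reads, 5.73). Over fragments rather than baits, 6 of 128 pairs (4.69%) were called, and on chromosome 12 as a whole 5.28% of such pairs were. The human share is thus near its background by fragments and below it by bait pairs, while the mouse share is above its background by both. Species, capture design and fragment map differ with the cell type: the fragments of the span had a median length of 3.26 kb in mm9 and 5.15 kb in hg19. The mouse span also leaves out Hoxc13, which the human span includes. The cell types cannot be told apart from these differences.

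**Figure D1:**
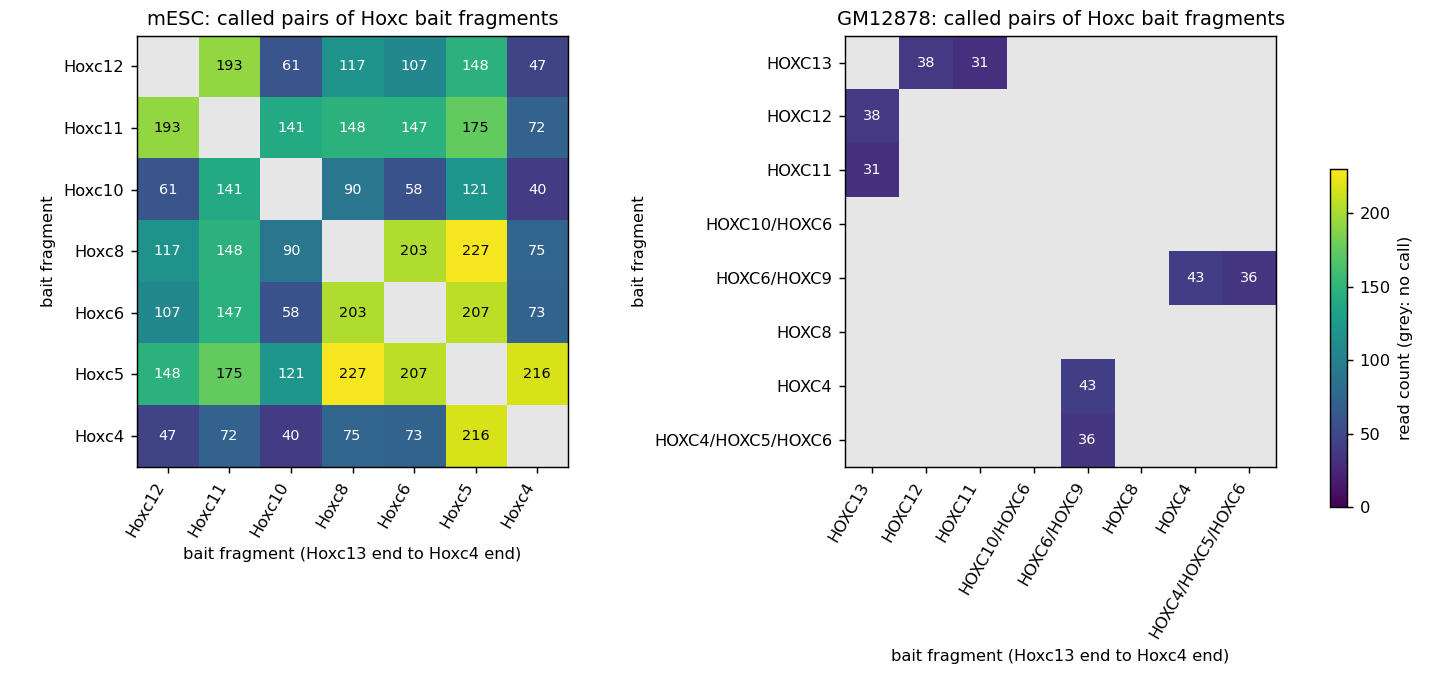
Read count of each called pair of Hoxc bait fragments in mESCs (left) and GM12878 (right), with baits in order from the Hoxc13 end to the Hoxc4 end on both axes, colour for the count and grey for no call. In mESCs all 21 pairs are filled, with 40 to 227 reads. In GM12878, 4 of 28 are, with 31 to 43 reads.

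The members differed in how many contacts they had. In mESCs the Hoxc5 bait had 91 calls, Hoxc11 83, Hoxc8 76, Hoxc12 63, Hoxc6 54, Hoxc4 45 and Hoxc10 32. The median bait of the whole list had 3, and 0.504% of baits had at least 50, a level that 5 of the 7 Hoxc baits passed. By number of calls Hoxc5 ranked 8th, Hoxc11 11th and Hoxc8 12th of 16265 baits. The calls inside the span were nearly even, at 16 to 20 per bait, so the range came from the flanks, with 15 calls for Hoxc10 and 66 for Hoxc5. In GM12878 the HOXC6/HOXC9 fragment had 52 calls, HOXC8 27, HOXC4/HOXC5/HOXC6 20, the other HOXC4 fragment 19, HOXC11 13, HOXC10/HOXC6 11, and HOXC12 and HOXC13 4 each. There 0.487% of baits had at least 50 calls, and 1 of the 8 HOXC baits did. HOXC12 and HOXC13 lie near the median of 3 for that list too. The HOXC6/HOXC9 fragment is also the longest of the 8, at 15520 bases, but HOXC4/HOXC5/HOXC6, with 20 calls, has 15214. In mESCs the longest bait, Hoxc10 at 9080 bases, had the fewest calls. A link of length to calls was not tested.

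**Figure D2:**
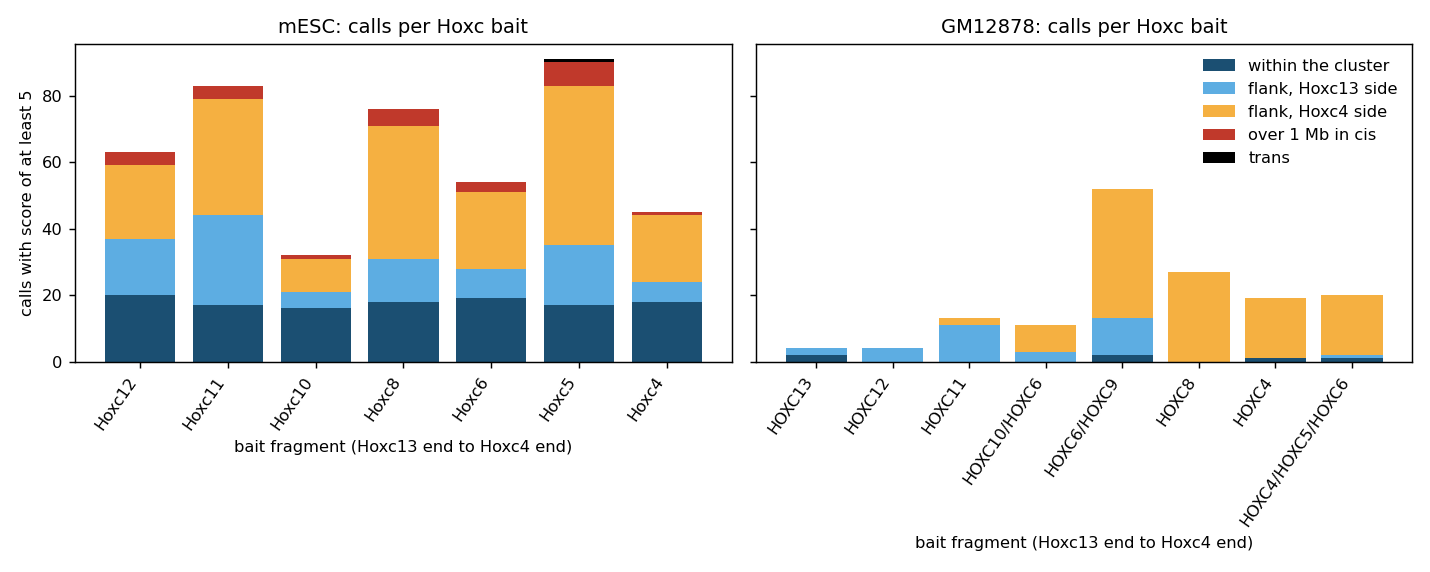
Calls per Hoxc bait in mESCs (left) and GM12878 (right), stacked by where the other end lies, with baits in order along the cluster. In mESCs each bait has 16 to 20 calls inside the cluster and at least 1 over 1 Mb away; in GM12878 no bait has more than 2 inside and none has a call over 1 Mb.

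Most calls in both cell types went to the flanks, taken as up to 1 Mb from the span. In mESCs these were 325 calls (63.5%, 59.2 to 67.5) to 88 fragments, 13 of which were called with all 7 baits. They had a median of 16 reads, far below the 74.5 inside the cluster, and 212 of them (65.2%) lay on the Hoxc4 side. In GM12878 they were 177 calls (95.7%) to 73 fragments with a median of 13 reads, 142 of them (80.2%) on the HOXC4 side, and no fragment was called with all 8 baits. The mouse flank holds the Hoxc13 fragment, with 14 of its 325 calls, while HOXC13 lies inside the human span.

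The strongest flank contacts in mESCs gathered between Smug1, a uracil-DNA glycosylase of base excision repair, and Cbx5, which encodes a heterochromatin protein that binds methylated histone H3. This interval of 33.6 kb (102988384 to 103021974) took 67 of the 325 flank calls (20.6%, 16.6 to 25.3), or 19.9 calls per 10 kb, against 8.54 between the cluster and Smug1 and 0.571 from Cbx5 to the end of the chromosome. The segments were drawn after the calls had been seen. Of the 10 flank calls with the highest score, 8 reached an unnamed fragment of this interval, and the other 2 the Hoxc13 fragment.

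The highest score belonged to the fragment from 103006307 to 103009916, which holds no annotated start. Its reads were 78 with Hoxc5, 46 with Hoxc8, 36 with Hoxc11, 35 with Hoxc6, 23 with Hoxc12, 23 with Hoxc4 and 18 with Hoxc10, and its scores ran from 21.3 with Hoxc4 to 66.6 with Hoxc5. It lies 158 kb from the Hoxc4 bait and 241 kb from the Hoxc12 bait, so the nearest bait was not the one with most reads. Reads also depend on how well each bait was captured. All 7 baits also called the fragments next to this fragment, from 102996139 to 103003838, from 103004239 to 103006306 and from 103009917 to 103025271. Among all mESC calls between 140 and 260 kb the median was 11 reads, and 1.35% of 23628 had at least 30 reads. Of these 320 calls, 19 involved a Hoxc member, among 155 Hoxc calls of that range. At 60 reads or more there were 38 calls (0.161%), 4 of them with a Hoxc member, each the Hoxc5 bait with a fragment of the Smug1 to Cbx5 interval.

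The corresponding human interval, of 41.9 kb (54582793 to 54624725), held the highest flank score in GM12878 too. It took 28 of 177 flank calls (15.8%, 11.2 to 21.9), or 6.68 per 10 kb, close to the 7.09 over the SMUG1 gene itself. The mouse and human intervals are not drawn alike: the mouse calls include the Smug1 promoter fragment, with 7 calls. The human SMUG1 promoter fragment (54580445 to 54583080), with 10 calls, counts in the gene. The fragment from 54583081 to 54591267, beside the SMUG1 promoter, had 35 reads with HOXC6/HOXC9 (score 33.5), 31 with HOXC8, 21 with HOXC4/HOXC5/HOXC6, 17 with the other HOXC4 fragment, 15 with HOXC11 and 13 with HOXC10/HOXC6. HOXC12 and HOXC13 had no call to it. In GM12878, 3.85% of 25059 calls between 140 and 260 kb had at least 30 reads. Among the 103 HOXC calls of that range 2 did, both to this fragment, a smaller share than over all calls. Of the 10 highest-scoring flank calls in GM12878, 6 reached this interval, 3 the SMUG1 promoter fragment and 1 the fragment of COPZ1 and NFE2.

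**Figure D3:**
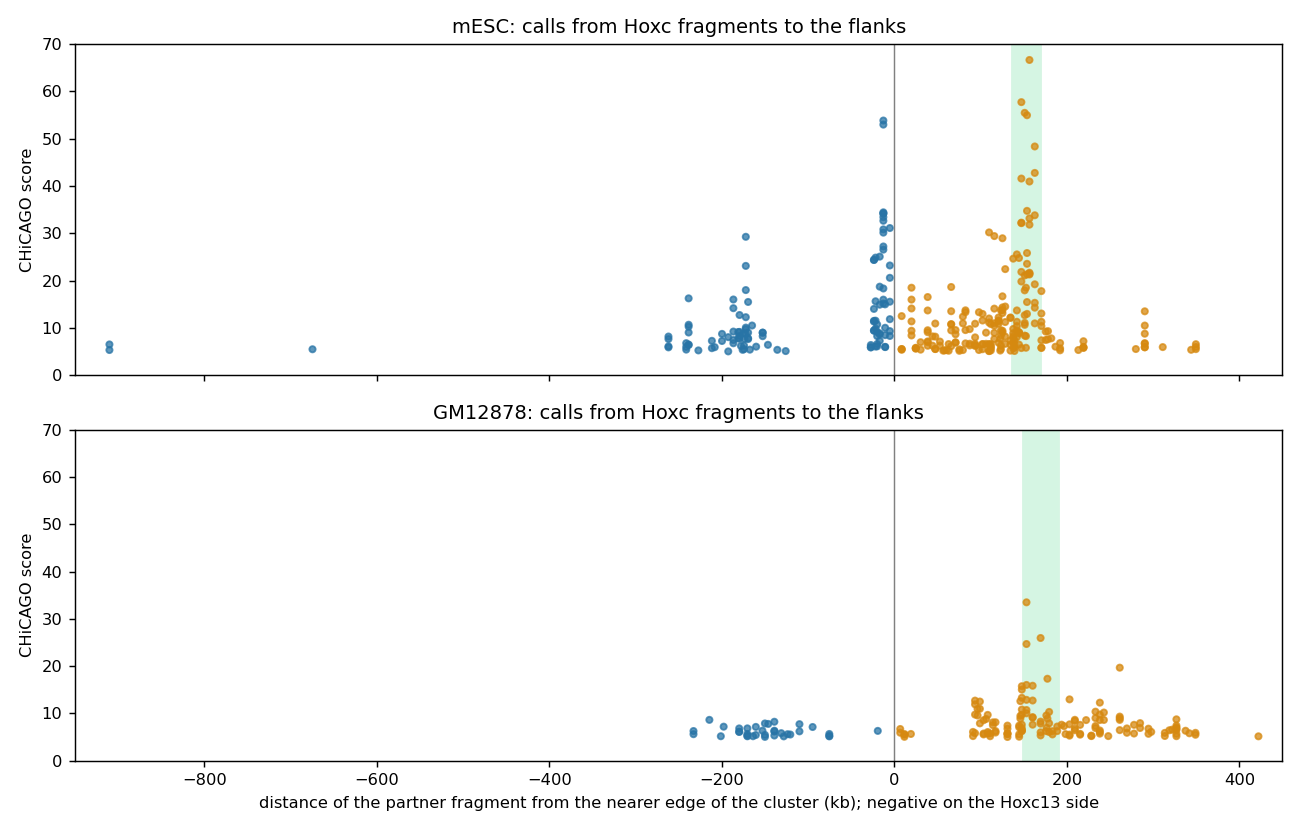
CHiCAGO score of each flank call (y axis) against the distance of the partner fragment from the nearer edge of the cluster (x axis, kb, negative on the Hoxc13 side), for mESCs (top) and GM12878 (bottom); blue points lie on the Hoxc13 side, orange on the Hoxc4 side, and the green band is the interval between Smug1 and Cbx5. The highest scores, 66.6 and 33.5, fall inside the band in both.

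On the Hoxc13 side in mESCs the fragment from 102590706 to 102593344, 171 kb from the cluster and without an annotated gene start, was called with all 7 baits, with 10 to 35 reads and scores up to 29.2. A bait listed under the name uce, 237 kb away, was called with 5 members, with 8 to 15 reads. The calls reached out to 908 kb, where an unnamed fragment (101851768 to 101856432) had 6 and 7 reads with Hoxc11 and Hoxc5. On the other side the outermost partner was Itga5, an integrin subunit, at 345 kb, with 12 to 14 reads from Hoxc6 and Hoxc8.

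Of 30 genes listed as lying beside the cluster, 26 appear in the whole mESC list, and 8 of these were named in the Hoxc calls, with 42 calls in all. Among pairs of a Hoxc bait and a listed neighbour's bait 100 to 500 kb apart, 20 of 96 were called (20.8%, 13.9 to 30.0), against 15.1% of all bait pairs at that distance. The interval includes the background. From 500 kb to 1 Mb, 1 of 79 such pairs was called, against 2.00% of all. These pairs share fragments, so the intervals cover counting error only. Gpr84, a receptor for medium-chain fatty acids, was called with 5 members (9 to 16 reads), Smug1 with 6 (8 to 21), Atp5g2, a subunit of ATP synthase, with 3 (11 to 14), and Calcoco1 and the shared Cbx5 and Hnrnpa1 promoter fragment with 2 each. Rarg, a retinoic acid receptor, was called once, with Hoxc5, on 9 reads at a score of 5.48, and Mir196a-2 is the fragment of Hoxc9 described above. In GM12878, 26 of the 30 appear in the whole list and 8 were named as well: Smug1, Cbx5, Hnrnpa1, Nfe2, Copz1 and Gpr84 as partners, and Hotair and Mir615, which share fragments with members. There 24 of 84 bait pairs 100 to 500 kb apart were called (28.6%, 20.0 to 39.0), against 17.2% of all, and 0 of 84 from 500 kb to 1 Mb (Wilson upper bound 4.37%), against 2.19%. The COPZ1/NFE2 fragment reached a score of 19.7 on 13 reads. NFE2 is a transcription factor of blood cells, and COPZ1 a coat protein subunit. By the fragment names of the lists, Smug1, Cbx5 and Gpr84 were flank partners in both cell types. That is 33.3% of the 9 mouse symbols and 21.4% of the 14 human ones, and no background share was computed for it. The names understate the overlap: annotated starts of Hnrnpa1, Zfp385a and Calcoco1 also lay on called flank fragments in both cell types.

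Among calls made from the member baits, the side of the flank followed the place of the bait in the cluster in GM12878. Of the 19 flank calls of the HOXC13, HOXC12 and HOXC11 baits, 17 (89.5%, 68.6 to 97.1) lay on the HOXC13 side. Of the 64 calls of HOXC8, HOXC4 and HOXC4/HOXC5/HOXC6, 1 (1.56%, 0.276 to 8.33) did. The fragments between them mixed both, with 3 of 11 for HOXC10/HOXC6 and 11 of 50 for HOXC6/HOXC9. Calls with a member at the other end are left out of these shares and of the mouse ones below. As the other end, the HOXC11 fragment was also called on the HOXC4 side. Those calls came from both SMUG1 baits, the COPZ1/NFE2 bait and the bait shared by CBX5 and HNRNPA1. HOXC13 was called as the other end from SNORD81, on the HOXC13 side. The split is thus less sharp when these calls are kept. In mESCs every bait reached both sides: 44 of 101 flank calls (43.6%, 34.3 to 53.3) of Hoxc12 and Hoxc11 lay on the Hoxc13 side, and 46 of 177 (26.0%, 20.1 to 32.9) of Hoxc8, Hoxc6, Hoxc5 and Hoxc4. The mouse span leaves out the Hoxc13 fragment, so calls to it count there as flank calls on the Hoxc13 side. The human span includes HOXC13, which is also a bait of the first human group, so the sides are not alike between species. These groups of baits were formed after the calls had been seen, and the difference between cell types was not tested.

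Beyond the flanks, mESC Hoxc promoters had 47 cis calls (9.18%, 6.97 to 12) and GM12878 had none, which allows a share of up to 1.62% of its 185 calls. All 7 mESC baits had at least 1 such call, against 6.68% of baits of the whole list (3.50% in GM12878). The calls joined 12 fragments, and 46 of the 47 lay 3.8 to 4.4 Mb away, at a single locus with Wnt10b and Wnt1, which encode secreted Wnt ligands, Ddn (dendrin), Dhh, a hedgehog ligand, C1ql4 and Dnajc22. The remaining call joined Hoxc5 to a fragment in the sodium channel gene Scn8a (100875464 to 100880059) on 6 reads, at 1968 kb.

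The Wnt10b bait fragment (98606642 to 98611550), whose promoter is printed above, was called with every Hoxc bait. Its reads were 11 with Hoxc5, 11 with Hoxc8, 8 with Hoxc6, 7 with Hoxc11, 5 with Hoxc12, 5 with Hoxc4 and 4 with Hoxc10. The contact was listed from both ends for all but Hoxc10, and its highest scores were 26.92 with Hoxc5 and 26.91 with Hoxc8. The Wnt1 bait fragment (98615317 to 98621983) had 12 reads with Hoxc8 (score 18.0), 10 with Hoxc5, 9 with Hoxc11, 8 with Hoxc6 and 7 with Hoxc4, each called from the Wnt1 end. The unnamed fragment beside it (98621984 to 98625096), which holds another annotated start of Wnt1, had 10 reads with Hoxc12 (24.9), 8 with Hoxc11, 7 with Hoxc5, 6 with Hoxc8 and 6 with Hoxc6. Dnajc22 had 6 or 7 reads with Hoxc12, Hoxc11, Hoxc8, Hoxc6 and Hoxc5, in both directions, and Dhh had 7 with Hoxc5 only.

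These are small counts, with 4 to 12 reads in each call, but calls at this distance were rare elsewhere. Of 75965 pairs of baits with a call that lie 3.8 to 4.4 Mb apart, 49 (0.0645%) were called. The Hoxc baits had 172 of these pairs, of which 23 were called, and without them the share was 0.0343% (26 of 75793). Of all 149 calls in this distance range, 46 involved a Hoxc member. The Hoxc9 and Hoxc13 fragments, which the rule does not use, were called to Wnt10b and Dnajc22 as well. In GM12878 the pairs of baits at that distance were called in 0.00320% of 62535. The human WNT10B, WNT1, DDN, DHH, C1QL4 and DNAJC22 genes lie farther from the cluster, at 4574 to 4960 kb, and their baits had 5 to 27 calls each, none over 1 Mb.

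**Figure D4:**
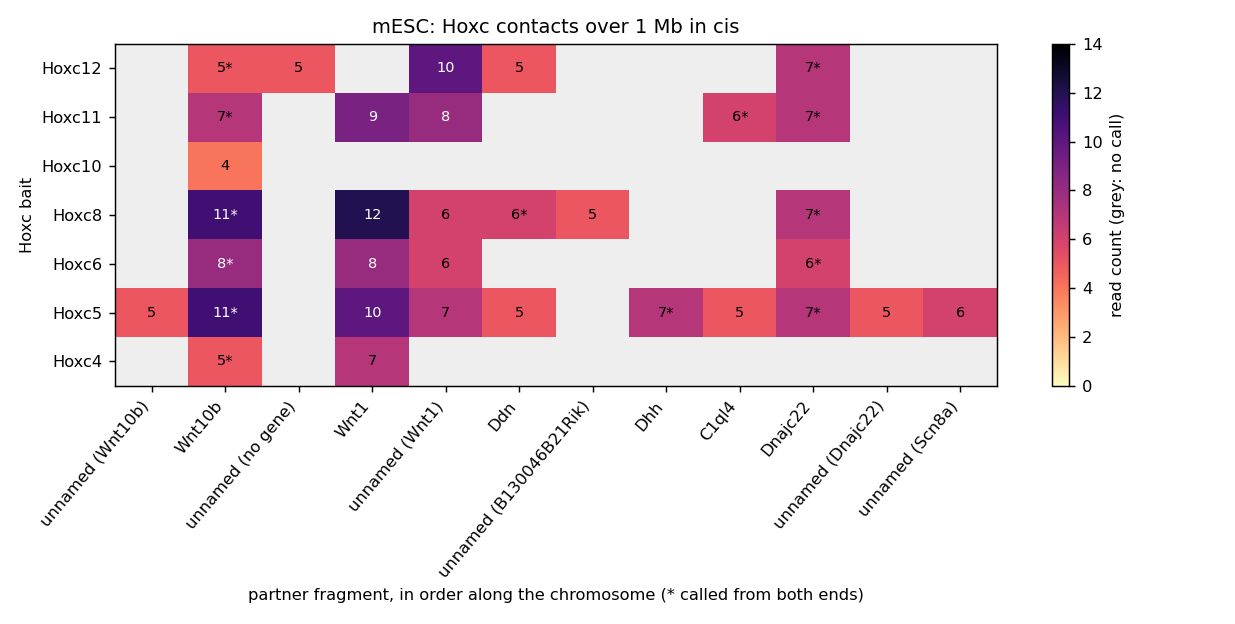
Read count of each mESC call between a Hoxc bait (rows, in order along the cluster) and a fragment over 1 Mb away on the same chromosome (columns, in chromosome order, with the annotated gene of unnamed fragments in brackets); grey marks no call and an asterisk a pair listed from both ends. The Wnt10b column is filled for all 7 baits, with 4 to 11 reads.

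Contacts with other chromosomes were a single pair. Hoxc5 and the Hoxb7 bait fragment on chromosome 11 (96143220 to 96152069), which also holds an annotated start of Hoxb8, were called from both ends, on 4 reads, with scores of 8.87 and 7.93. That is 2 of 512 mESC calls (0.391%, 0.107 to 1.41) and 1 of 7 baits, against 2.02% of baits with a trans call in the whole list. GM12878 had none, which again allows up to 1.62%, and there 0.273% of baits had one. Other fragments of the Hoxc cluster reached Hoxb as well in mESCs: the Hoxc9 fragment was called with the 0610040B09Rik bait, which overlaps Hoxb5 (4 reads, scores 8.94 and 8.70), and with a fragment holding a Hoxb3 start (3 reads, 5.27), and an unnamed fragment in Hoxc11 with the Hoxb6 bait (3 reads, 5.27). All trans calls of fragments in the span thus led to Hoxb, on 3 or 4 reads each. Of the 32 other Hox genes listed, 26 appear in the mESC list and 27 in the GM12878 list, and Hoxb7, in mESCs, was the one named in a member's call. Of 101 listed developmental transcription factors, 91 appear in the mESC list and 68 in the GM12878 list, and of 29 Polycomb components 24 and 28. In both cell types 0 of them were named as partners. Over all named symbols other than the members, 0.106% in mESCs and 0.105% in GM12878 lay on a fragment called with a member, so lists of this size would hold about none at the background share.

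Beside Hoxc, the other clusters of the mESC list had 389 calls (Hoxa, 8 baits), 499 (Hoxb, 10) and 211 (Hoxd, 6). Calls inside the cluster were 60.9% of them for Hoxa, 52.5% for Hoxb and 22.3% for Hoxd, with Hoxc at 27.0%. Calls over 1 Mb in cis were 8.74%, 19.4% and 28.0%, with Hoxc at 9.18%. In GM12878 the other clusters had 19, 143 and 62 calls, of which 0, 2 and 0 lay inside the cluster. These values stand side by side, and the differences between clusters were not tested.

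Contacts of the uncaptured mESC Hi-C library were given as bin pairs of 25 kb (up to 1 Mb) and of 1 Mb, which held part of the Hoxc calls. HOMER, a tool that scores read pairs against an expectation from coverage and distance, had listed these bin pairs with an adjusted p-value. The paper calls this Hi-C dataset pre-capture, so it may share material with the capture libraries and cannot be counted as a separate experiment. Of the 463 Hoxc calls under 1 Mb, 280 (60.5%, 56.0 to 64.8) fell in a 25-kb bin pair with an FDR under 0.05, against 11.6% of all mESC calls of that range. The share was 84.8% inside the cluster and 50.2% on the flanks. For calls under 100 kb it was 74.0%, against 14.3% of all such calls. Many Hoxc calls share a bin pair: 22 listed 25-kb pairs with an end in the cluster had an FDR under 0.05, 6 of them inside it. The intervals do not account for this sharing. The bin of the Hoxc11 and Hoxc10 fragments and that of the Hoxc6 and Hoxc5 fragments (starting at 102775000 and 102825000) had 248 read pairs against 34.4 expected, a ratio of 7.20 and the highest inside the cluster. The bin with the strongest flank fragments (103000000) had 93 read pairs with the bin at 102825000 against 12.9 expected (7.23), 64 against 9.0 with the one at 102775000 (7.11), 43 against 5.73 with the one at 102800000 (7.50) and 37 against 6.36 with the one at 102750000 (5.82). Of the 62666 listed 25-kb bin pairs, 2081 had a higher ratio than the highest of the cluster. The ratios of the 6 bin pairs inside the cluster ran from 2.83 to 7.20. For all Hoxc calls from 100 kb to 1 Mb the share in a bin pair was 47.9%, against 9.74% of all calls of that range.

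At the scale of 1 Mb, 46 of the 47 far calls (97.9%, 88.9 to 99.6) lay in a listed bin pair with an FDR under 0.05, but all 46 share 1 bin pair. Of all mESC calls over 1 Mb in cis, 59.4% lay in such a pair. Between 3.8 and 4.4 Mb it was 63.8% (95 of 149), and these 95 include the 46 Hoxc calls. The bin with Hoxc and the bin with Wnt10b and Wnt1 had 960 read pairs against 361 expected, a ratio of 2.66. It was the highest of 11 listed cis pairs of the Hoxc bin, and of the 179 listed pairs of bins 4 Mb apart 4 were higher. Between chromosomes, the Hoxc bin had 122 read pairs against 24.9 expected with the bin on chromosome 11 that holds Hoxb1 to Hoxb13, a ratio of 4.90. This was the first of its 54 listed trans pairs and number 84 of 10899 in the list. With the bin that holds Hoxa the ratio was 2.21 (51 against 23.0, with an FDR listed as 0.000103), which ranked 20th of the 54. Both mESC trans calls lay in such a bin pair, against 44.0% of all trans calls. Far and trans calls together were inside in 48 of 49 cases (98.0%), against 57.2% of all calls of these kinds. The Hi-C and capture libraries came from the same kind of cells, and 1-Mb bins hold many genes beside the clusters.

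**Figure D5:**
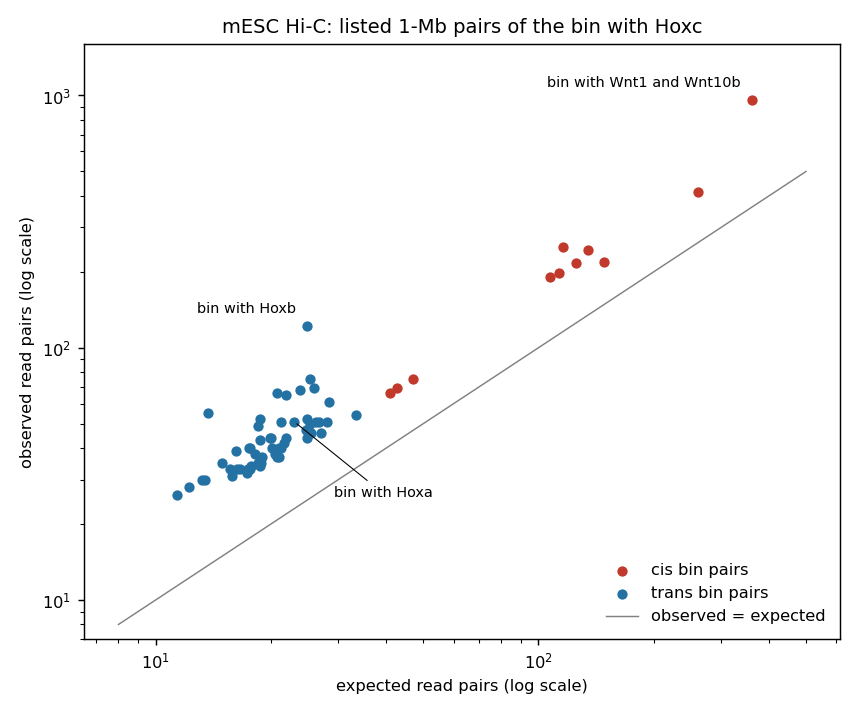
Observed against expected Hi-C read pairs (both log axes) for each listed 1-Mb bin pair of the mESC bin with Hoxc, in cis (red) and in trans (blue); the line marks observed equal to expected. The pair with Wnt1 and Wnt10b has 960 against 361 and the pair with Hoxb 122 against 24.9, the highest ratio of each kind.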

How the data were processed

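The samples were 2 mESC and 3 GM12878 promoter capture Hi-C libraries and 1 mESC Hi-C library. The authors mapped reads with HiCUP (Bowtie 1.1.0) to mm9 or hg19, combined replicates into 1 rounded weighted read count per fragment pair, and deposited the pairs whose CHiCAGO score was at least 5. The read counts are therefore weighted counts over replicates, not raw counts. HOMER 4.7 gave the deposited Hi-C counts of read pairs, the expected coverage signal and adjusted p-values per bin pair. Another 10 value columns of the Hi-C tables were left aside. The deposited lists hold no depth per library, and the totals that the study states are not used here.

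Fragment names were split at semicolons, commas and vertical bars, and matched to the 9 symbols without regard to case. The members and lists were chosen with earlier results of these data known. Named were every member, the 10 highest flank scores with the outermost call on each side, and all far and trans contacts or the 20 with the highest scores. Distances run between fragment midpoints. All 7427 mouse and 3325 human listed fragments on the chromosomes checked equalled HindIII fragments of the reference (mm9, hg19). One promoter window is not reported here. Starts came from GENCODE vM1 and v44lift37. Python 3.11.15, pandas 2.3.3 and scipy were used, and the classification was tested on simulated calls. A share of 0 allows up to 3 counts of the total.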

Additional observations from a re-analysis of the deposited data

How the results depend on the processing

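No paired analysis was possible because the replicates were pooled before deposit and the columns carry no replicate number, and for the same reason no replicate could be left out. Of 85 values of 15 results under the alternatives, 60 stayed within 1.5 times the count or within the 95% interval, and 25 moved. At a score of at least 10, the mESC calls were 268 in all, 135 on the flanks, 17 far in cis, 0 in trans and 0 to another Hox cluster, the median cis distance was 77.5 kb in place of 127 kb, and 77.3% and 100% of calls lay in a Hi-C bin pair of 25 kb and 1 Mb. The same threshold left 26 GM12878 calls, all 26 on the flanks and 0 within the cluster, at a median of 189 kb in place of 207 kb. With at least 10 reads, 7 mESC far calls, 0 trans calls and 0 calls to another Hox cluster were left, the median distances were 101 kb and 188 kb, and the 1-Mb share was 100%. With each pair counted once, or in the browser list, the trans calls and those to another Hox cluster were 1. The browser list holds no read counts, so both conditions could not be joined. With members found by position there were 6 trans calls, and with the Hoxc9 and Hoxc13 fragments added 5, an alternative chosen after seeing the data. With every listed 25-kb bin pair the share was 71.3%. Far and trans contacts rest on few reads and cannot be ranked finely at this depth.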
